A study of Mus musculus with 4 samples.

Results

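Endothelial cells line the blood and lymphatic vessels of the fetal mouse penis and were a small class in this single-cell RNA data set. They were chosen by counts alone. A cell barcode had to hold 1000 to 10000 UMIs (unique molecular identifiers, each standing for 1 captured transcript), with at most 25% mitochondrial and at most 25% *Hba* and *Hbb* globin UMIs, and at least 3 of the 6 genes *Pecam1*, *Cdh5*, *Kdr*, *Emcn*, *Tie1* and *Egfl7*. The rule found 475 cells among 33704 that passed the filters (1.41%), from 47040 barcodes in the series. Male genitalia of E16.5 mouse embryos, the stage of urethra closure, were profiled with 10x Genomics 3' libraries from 2 control and 2 *Nr5a1*-lineage-ablated samples. The question was what the loss of that lineage does to the penis. Controls (DTA-, labelled WT) lacked *Nr5a1-Cre* and carried the *Rosa-LSL-DTA* +/f allele. Ablated samples (DTA+) carried *Nr5a1-Cre* Tg/+ with the same DTA allele, so that diphtheria toxin A was made in cells with a history of *Nr5a1*. The methods give a *Rosa-LSL-tdTomato* +/f allele in the ablation cross. The Cre transgene also removes cells elsewhere, and these embryos are described as having smaller testes and no adrenal glands, so that direct effects and effects of lost hormones cannot be told apart. The labels do not say how many embryos each sample held, so p-values measure the spread between libraries.

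Endothelial cells are held together by VE-cadherin (*Cdh5*) and PECAM-1, and take their growth signal from VEGF through VEGFR2 (*Kdr*). TIE receptors, Notch and the ALK1-endoglin pathway then guide vessel stability and the choice of arterial, venous, capillary or lymphatic fate. Much of the endothelial gene programme is driven by ETS transcription factors such as ERG and FLI1, which bind a GGAA core. In the penis, endothelium lines the blood spaces of the erectile bodies.

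The letters AGGAAG, 1 form of the ETS core, were searched on both strands in the 250 bases before RefSeq gene starts (GRCm38.p6). They occurred in 29.5% of the 32851 windows, and the stricter ETS site CCGGAAGT in 2.88%. The table matched 4 of the 6 genes of the rule (*Egfl7*, *Emcn*, *Kdr* and *Tie1*), and 3 of these held AGGAAG. A pair of them is shown, 1 with and 1 without a match, as far as the bases lie outside every exon of the GENCODE vM21 annotation. Capitals mark AGGAAG or its reverse complement. The *Emcn* bases, chr3:137340828-137341066 on the plus strand, hold 2 matches, 174 and 93 bases before the start. The *Kdr* bases, chr5:75978459-75978705 on the minus strand, hold no AGGAAG, though the shorter GGAA core occurs in them.
Emcn: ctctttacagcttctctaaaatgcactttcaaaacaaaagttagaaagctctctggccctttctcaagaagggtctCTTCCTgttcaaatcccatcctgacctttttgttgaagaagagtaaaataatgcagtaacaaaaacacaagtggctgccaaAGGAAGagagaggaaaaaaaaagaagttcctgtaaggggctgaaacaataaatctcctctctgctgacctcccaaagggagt
Kdr: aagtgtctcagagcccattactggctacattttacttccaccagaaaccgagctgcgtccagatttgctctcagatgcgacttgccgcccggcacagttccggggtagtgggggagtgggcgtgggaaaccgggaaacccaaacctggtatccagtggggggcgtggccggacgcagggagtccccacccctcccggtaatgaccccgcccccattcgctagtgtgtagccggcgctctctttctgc

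The rule gave 124 and 126 endothelial cells in the control samples and 124 and 101 in the ablated samples, with 595671, 531716, 623986 and 542515 UMIs in all. Their median depth was 4512, 3627.5, 4725 and 5430 UMIs per cell, against 5073.5, 4250, 3671.5 and 3665 in the other cells of the same 4 samples. Endothelial cells were thus shallower than the rest in both controls and deeper in both ablated samples. Among the members, 54 cells held exactly 3 of the 6 genes, 73 held 4, 162 held 5 and 186 held all 6. Just outside the threshold, 158 cells held 2 of the genes, while 2375 held 1 and 30696 held none. The upper UMI limit left out 105, 93, 88 and 63 barcodes that held at least 3 of the genes, 349 in all. Not all of these joined the class: without that limit, and with the other filters kept, it had 816 cells and 4.95 times as many UMIs. The genes with the smallest genotype p are therefore also given without that limit. No endothelial barcode was shared between libraries, while 31 to 48 of all barcodes were shared by each pair.

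Endothelial cells made up 1.63% and 1.49% of the passing cells in the control samples and 1.49% and 1.08% in the ablated samples. The exact (Clopper-Pearson) 95% intervals, which cover counting error only, were 1.36 to 1.94%, 1.25 to 1.78%, 1.24 to 1.78% and 0.879 to 1.31%. Ablated replicate 2 was lowest, and ablated replicate 1 was within counting error of both controls. The mean was 1.56% ± 0.0972 in controls and 1.29% ± 0.293 in ablated samples (SD, n = 2). An exact two-sided permutation test gave p = 0.333, the smallest that 2 against 2 samples allow. After each cell was thinned to 1000 UMIs, the shares were 1.09%, 0.901%, 1.04% and 0.662%, and the exact p was 0.667. As a share of all barcodes, with no filter on the denominator, the values were 0.986% and 1.09% in controls and 1.08% and 0.890% in ablated samples, which overlap, and the difference was -0.0518 percentage points (exact p = 0.667).

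The class carried the markers its name calls for. *Cdh5* reached 1032 ± 73.1 CPM (UMIs of the gene scaled to a common library total, without TMM factors, SD, n = 4 samples) in the endothelial cells and 1.94 ± 0.472 CPM in all other cells. *Egfl7*, a secreted factor of endothelium, stood at 1048 ± 111 CPM against 11.1 ± 1.79, and *Pecam1* at 811 ± 95.4 against 2.23 ± 0.597. These genes chose the cells, so the gaps are a description. With cells thinned to 1000 UMIs, *Pecam1* was seen in 54.8%, 56.3%, 62.9% and 53.5% of the endothelial cells of the 4 samples and in 0.134%, 0.241%, 0.269% and 0.183% of the other cells, the latter an estimate of the background. *Tie1* was the sparsest of the 6, at 197 ± 27.2 CPM and with a UMI in 53.9% of the members.

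Genes outside the rule separated the cells as clearly. Of 7239 genes at 20 CPM or more in either class, 724 were at least 1 higher on the log2 scale in endothelial cells (after 10 CPM was added to both), 107 were at least 3 higher and 845 were at least 1 lower. *Gpihbp1*, which anchors lipoprotein lipase to the capillary wall, was second only to *Cdh5*, with 928 ± 62.0 CPM and a log2 ratio of 6.25 (6.06 to 6.40 over the samples). *Cldn5*, the main tight junction claudin of endothelium, had a log2 ratio of 5.90, with 969 and 429 CPM in the controls. *Flt1*, a VEGF receptor that acts largely as a trap, had 5.49, *Plvap*, which forms the diaphragms of fenestrated capillaries, 5.32, and *Aplnr*, the apelin receptor, 4.75. The other 10 of the 15 genes outside the rule among the leading 20 were *Cd93*, *Icam2*, *Esam*, *Ecscr*, *Adgrf5*, *Prnd*, *Rasip1*, *Tm4sf1*, *Ptprb* and *Gimap6*. Some genes with high ratios came from few cells. *Fabp4*, a fatty acid carrier of capillary endothelium, had a log2 ratio of 4.39, ranging from 1.21 to 5.33 between samples, but a UMI in only 10.7% of the members. *Ccl21a*, the lymphatic chemokine, had a ratio of 3.69 from 1.26% of them.

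**Figure D1:**
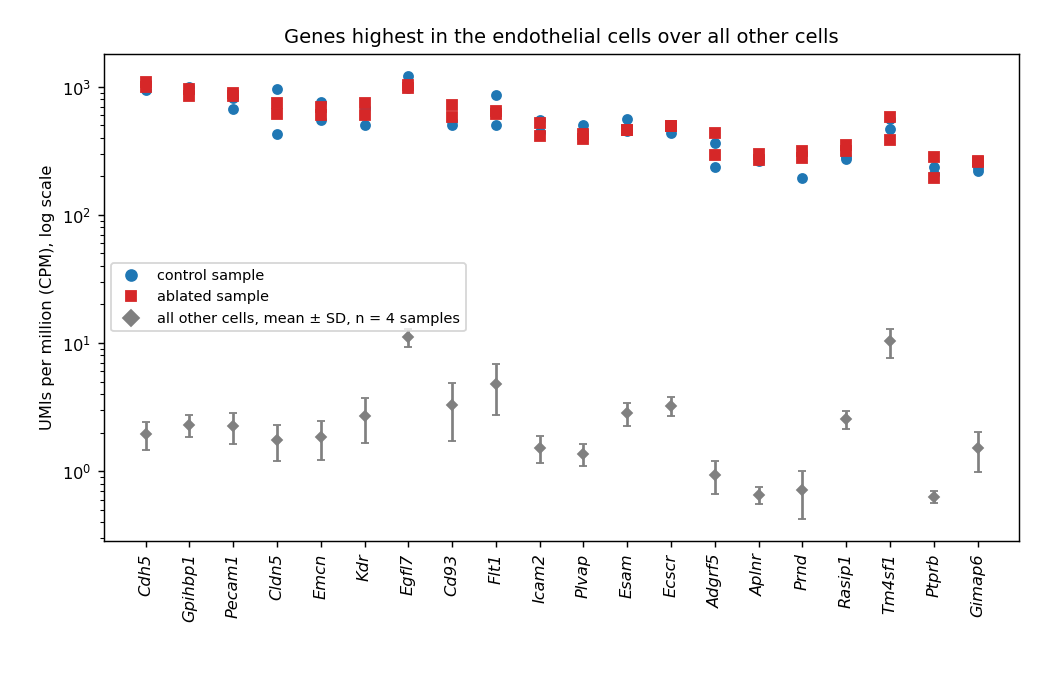
Unscaled CPM (log axis) of the 20 genes with the highest log2 ratio in endothelial over all other cells. Circles are control and squares ablated samples, and grey diamonds with bars give the mean and SD of the other cells over 4 samples. Each of the 20 genes sits at 194 CPM or more in every endothelial sum and at or below 11.1 CPM on average in the other cells.

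Markers of most other classes were lower than in the other cells, but those of erythroid and mast cells were not in every sample. Pericyte markers summed to 25.2, 77.1, 65.7 and 53.5 CPM, against 437 to 471 CPM in the other cells, and smooth muscle markers to at most 47.0 CPM. Schwann markers stood between 3.36 and 7.37 CPM, with 5 of 6 genes at 0, and no member held 3 macrophage, Schwann or smooth muscle markers. Mesenchyme markers, led by *Col3a1*, were lowest in control replicate 1 at 416 CPM and reached 2488, 1388 and 1237 CPM in the other samples, below the 10462 CPM or more of the other cells. At least 3 of these 9 genes were held by 18, 31, 20 and 14 members. Globin and other erythroid markers, led by *Hbb-bs*, summed to 9985, 6861, 5923 and 256 CPM, against 4099, 3633, 2373 and 932 CPM in the other cells. They were higher in endothelial cells in all but ablated replicate 2, which stood apart. Mast cell markers reached 1459 CPM in control replicate 1, against 502 CPM in its other cells, and at most 88.1 CPM elsewhere, and 1 cell held 431 of the 443 UMIs of the mast protease *Cma1* in that sample. How much of these signals was free RNA, attached cells or doublets was not tested.

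The members fell into 7 sub-clusters of 43 to 110 cells, which are described by their leading genes. Sub-cluster 5, with 44 cells, was arterial-like: 12 of 13 arterial markers were enriched, including *Gja4* and *Gja5*, the connexins of arterial endothelium, and *Sox17*. *Stmn2* and *Vegfc* were also among its 10 leading genes. It held 7.26% and 8.73% of the endothelial cells of the control samples and 9.68% and 11.9% of those of the ablated samples, with intervals that overlap. Sub-cluster 7, with 43 cells, was cycling-like, led by *Top2a* and *Prc1* with 17 of 21 cycle markers enriched, although those markers were not used to cluster. It held 9.68%, 6.35%, 8.06% and 12.9% of the 4 samples' members. Sub-cluster 6 had the lymphatic genes *Lyve1*, *Ccl21a* and *Prox1* among its 10 leading genes, but from few of its 44 cells. *Lyve1* and *Ccl21a* were each in 4.55% of them and *Prox1* in 20.5%. Since 5 of 8 venous markers, *Nr2f2* and *Ephb4* among them, were enriched as well, the sub-cluster was left unnamed. Sub-cluster 6 held 5.65%, 11.9%, 14.5% and 3.96% of the 4 samples' members, most in ablated replicate 1. Sub-cluster 2, with 109 cells, was led by *Fabp4* and the interferon-induced *Ifit2*, found in 15.6% and 3.67% of its cells. It had *Gpihbp1*, *Aqp1* and *Cd300lg* enriched, but 3 globin genes stood among its 10 leading genes and it too stayed unnamed.

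Sub-clusters 1 and 3 set control replicate 1 apart. Sub-cluster 3 had the immediate-early and inflammatory genes *Atf3*, *Cxcl1* and *Egr3* among its 10 leading genes, and held 2.42% of the members of control replicate 1 against 23.8%, 21.0% and 17.8% in the other samples. Sub-cluster 1 had mast genes as its leading genes, but from few of its 110 cells, with *Cma1* in 4.55% and *Cpa3* in 0.909% of them. It held 45.2% of control replicate 1 and 18.3%, 8.87% and 19.8% of the others. All 48 cells of sub-cluster 4, led by *Col1a2*, *Wnt5a* and *Col3a1*, held at least 3 mesenchyme markers, and its shares of 5.65%, 13.5%, 11.3% and 9.90% had intervals that overlap. The dissociation stress list was also lowest there: its summed level in the endothelial cells was 3242 CPM in control replicate 1 and 6881, 7826 and 6182 CPM in the others, and in all other cells 9734 CPM against 19011, 17001 and 15396. With 2 samples a genotype, no test of these shares was made.

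**Figure D2:**
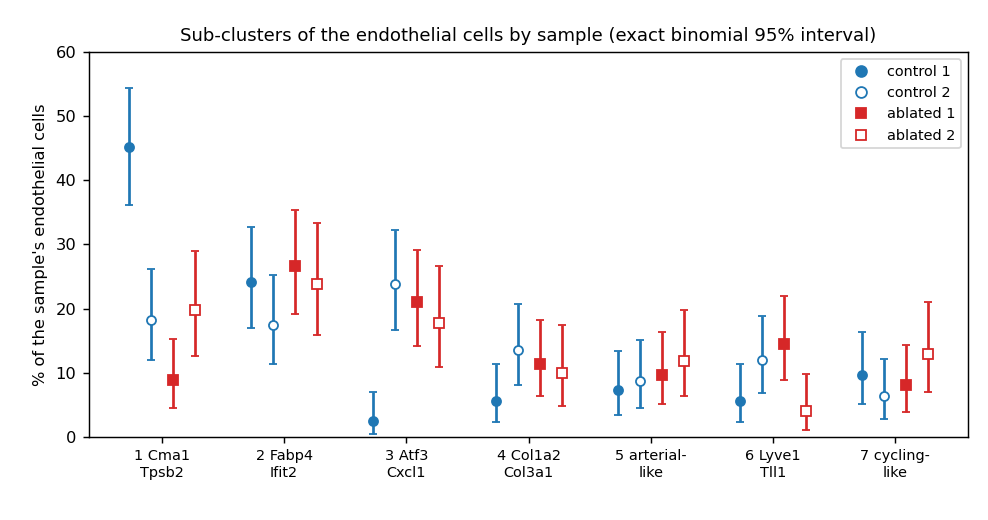
Share of each sample's endothelial cells (percent) in the 7 sub-clusters, labelled by leading genes or, where markers allowed, by likeness. Points are samples and bars exact binomial 95% intervals. Control replicate 1 holds 45.2% of its cells in sub-cluster 1 and 2.42% in sub-cluster 3. For the arterial-like and cycling-like shares the intervals of all 4 samples overlap.

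The ablated samples were then compared with the controls on counts summed per sample over the endothelial cells (edgeR quasi-likelihood test, Benjamini-Hochberg adjustment). Of 6860 genes tested, 0 passed an adjusted p of 0.05 (0%), and 298 had an unadjusted p under that value. DESeq2 called 1 gene, *tdTomato*, and edgeR's likelihood ratio test called 3, *tdTomato*, *Jade1* and *Sesn3*, each of which passed the filter on low counts through the ablated samples alone. In 34.7% of all genes tested the 2 ablated values lay wholly above (17.7%) or wholly below (17%) the 2 control values, which is the background for the counts below. The median log2 fold change was -0.015. In the other cells of the same samples, which held far more UMIs, 66 of 16325 genes were called (0.404%). The genes named next have the smallest p among those at a mean of 20 CPM or more without overlap, and none of them passed. CPM in the genotype comparisons are scaled with TMM factors unless called unscaled.

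The smallest p belonged to *tdTomato*, the reporter placed in the *Rosa26* locus. It had 0 UMIs in both control samples and 30 in each ablated sample, or 49.4 and 56.0 CPM, at least 19.3-fold higher than a floor of 3 counts over the control group (adjusted p = 0.0598). It was called in 17 of the 19 alternatives that tested it, among them the fit with the replicate number as a block. These alternatives refit the same libraries, and *tdTomato* passed the filter on low counts through the ablated samples alone. The tally is therefore a description. The methods say that every mouse used for single-cell sequencing carried both *Nr5a1-Cre* and the reporter allele, while the genotype given for the controls has no Cre and these libraries hold no *tdTomato* UMI in any cell class shown here. The labels do not say whether the control embryos carried the reporter allele, so a difference in the allele and a difference in its expression cannot be told apart. The methods also describe a low, leaky level of this transcript in most cells of the genitalia. A UMI was seen in 18.5% and 22.8% of the ablated endothelial cells, and in none of the 124 and 126 control cells. Unscaled levels in cells with 3 pericyte or 3 macrophage markers and in all other cells were compared with those in endothelium. They were 48.1 and 55.3 CPM in endothelial, 54.8 and 70.1 in pericyte-marker, 46.1 and 36.5 in macrophage-marker and 85.5 and 68.5 CPM in all other cells, so that all other cells were above and macrophage-marker cells below the endothelial values. The share of free RNA in these levels was not tested.

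A pair of neighbours on chromosome 6 stood beside it. *Gt(ROSA)26Sor*, the noncoding transcript of the *Rosa26* locus (GRCm38 chr6:113067428-113077333, minus strand), had 16.4 and 25.6 CPM in controls and 46.1 and 84.0 CPM in ablated samples, a log2 fold change of 1.62 ± 0.40 (SE), and reached the filter on low counts only through the ablated samples. *Setd5*, a chromatin regulator that starts 32 bases away on the plus strand (chr6:113077365-113153435), had 100 and 102 CPM in controls and 163 and 177 CPM in ablated samples, with a log2 fold change of 0.75 ± 0.20. Neither passed in the endothelial cells (adjusted p = 0.945 for both). *Gt(ROSA)26Sor* rose in all other cells, by 2.25 ± 0.16 on the log2 scale (adjusted p = 0.008155), and in the 816 endothelial cells without the upper UMI limit, by 1.81 ± 0.19 (adjusted p = 0.0204). *Setd5* did not pass in either, at 0.39 ± 0.12 (adjusted p = 0.221) and 0.80 ± 0.19 (adjusted p = 0.886).

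**Figure D3:**
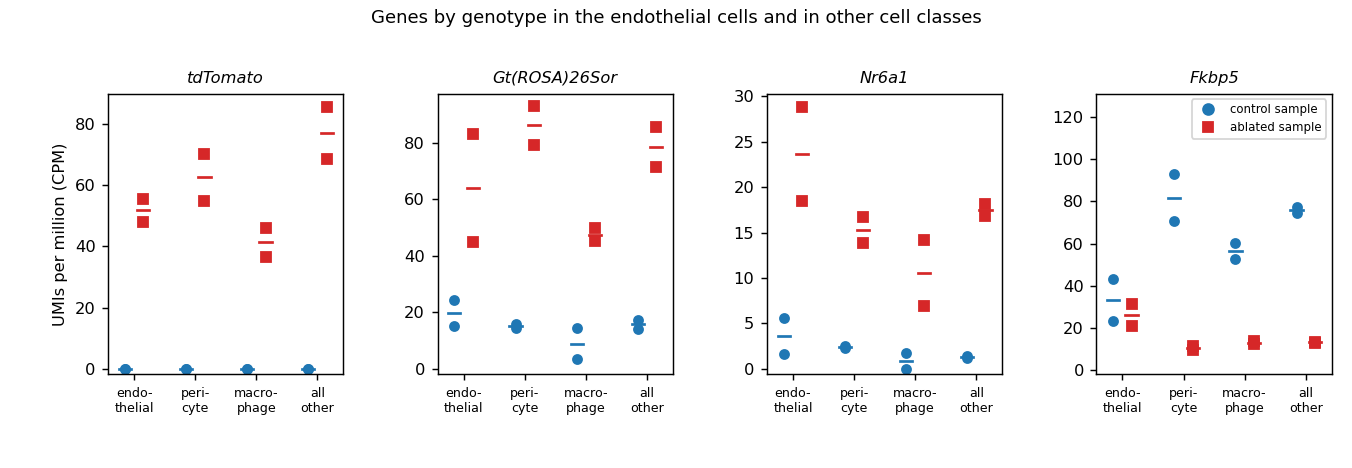
Unscaled CPM of 4 genes in endothelial cells, in cells with at least 3 pericyte or 3 macrophage markers, and in all other cells. Circles are control samples, squares ablated samples and short lines group means, n = 2. *tdTomato* is at 0 in the control samples of each class, while for *Fkbp5* the genotypes overlap in endothelial cells and not in the other classes.

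Without the upper UMI limit 8 of 10870 genes were called (0.0736%), 4 higher (0.0368%) and 4 lower (0.0368%) in ablated samples. *tdTomato* (adjusted p = 0.000834) and *Gt(ROSA)26Sor* were 2 of them, and *Nr6a1*, an orphan nuclear receptor named here after its values were seen, was another, with 4.53 and 5.99 CPM unscaled in controls, 27.5 and 24.7 CPM in ablated samples and a log2 fold change of 2.26 ± 0.28 (adjusted p = 0.0350). *Nr6a1* rose by 3.65 ± 0.19 in all other cells as well (adjusted p = 0.00267). The other 5 were the mast genes *Cpa3*, *Cma1*, *Hdc* and *Tpsb2*, lower in ablated samples, and the macrophage gene *Lyz2*, higher. These 5, and *tdTomato* again, passed the filter on low counts only through the genotype where they are high, with 3 and 2 UMIs of *Lyz2* in controls and 9 and 4 of *Cma1* in ablated samples. Once cells with 3 or more markers of another class were left out, 3 of the 8 were called, *tdTomato*, *Gt(ROSA)26Sor* and *Nr6a1*.

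Among the other genes with the smallest p that were higher in ablated samples was *Sox4*, a transcription factor of progenitor cells, with 224 and 203 CPM in controls and 469 and 325 CPM in ablated samples (log2 fold change 0.90 ± 0.22). *Sesn3*, a stress-induced inhibitor of growth signalling, had 14.6 and 13.8 CPM against 47.7 and 54.1 CPM (1.83 ± 0.35). The ablated values were above the control values in both genes, and their adjusted p was 0.945. *Lum*, a mesenchyme proteoglycan, was also higher in value, with a log2 fold change of 2.02 ± 0.44 that became -0.11 without the upper UMI limit. *Tshz1* had 1.19, and -0.077 without that limit and without cells of other markers. *Jade1* had a log2 fold change of 2.21, from 7 and 2 UMIs in controls and 28 and 18 in ablated samples. *Sesn3*, *Lum* and *Jade1* passed the filter on low counts only through the ablated samples, where they are high. Their place among the smallest p is therefore a description. The call of each with no filter on low counts rests on the same counts and is a description too. That fit called 27 genes of 15136, mast and globin genes among them. Without the upper UMI limit the log2 fold changes were closer to 0, at 0.30 for *Sox4*, 1.05 for *Sesn3*, 0.50 for *Jade1* and 0.05 for *Tshz1*.

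The 10 lower genes were picked by the same rule, and no shared theme among them was tested. *Stab1*, a scavenger receptor of sinusoidal and lymphatic endothelium, had 140 and 122 CPM in controls and 69.1 CPM in both ablated samples, a log2 fold change of -0.92 ± 0.22. *Rbp7*, a retinol-binding protein of capillary endothelium, had 92.8 and 297 CPM against 46.1 and 56.0 CPM (-1.92 ± 0.48), so that the control replicates differed more from each other than the lower of them did from the ablated samples. Its log2 fold change was -0.87 without control replicate 2 and -2.55 without control replicate 1. It was called in 4 of 20 alternatives: with no filter on low counts, without control replicate 1, without ablated replicate 2, and without cells holding 3 erythroid markers (-1.91, adjusted p = 0.0472). *Egln3*, an oxygen-sensing prolyl hydroxylase, had 36.4 and 41.3 CPM against 9.87 and 14.9 CPM (-1.64 ± 0.39). *H2-D1*, a class I MHC gene, had 251 and 317 CPM against 168 and 168 CPM (-0.75 ± 0.20). *Snhg3*, *Ino80e*, *Aopep*, *Fbxo22* and *Crip1* had log2 fold changes between -1.52 and -0.77, and *Stmn2* is described below. The adjusted p was 0.945 for all 10. *Egln3* and *Fbxo22* passed the filter on low counts only through the control samples, where they are high. Without the upper UMI limit the 10 log2 fold changes were also closer to 0, at -1.15 for *Rbp7*, -1.13 for *Egln3*, -0.71 for *Stab1* and -0.38 for *H2-D1*, and none passed.

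Members of 18 lists of vascular and related pathways (231 genes, 178 of them tested) were read against the 34.7% of genes without overlap and the median of -0.015. No member of any list was called in either direction. Of 7 VEGF genes tested, 0 lay above and 2 below the controls without overlap, and the median log2 fold change was -0.17. *Kdr* had 546 and 718 CPM in controls and 764 and 614 CPM in ablated samples (0.13 ± 0.20), and the samples overlapped. It is 1 of the 6 genes that chose the cells, so its level among them, like that of the other 5 in these lists, is a description. *Flt4*, the VEGF-C receptor of lymphatic endothelium, had 106 and 70.8 CPM against 56.0 and 59.7 CPM (-0.61 ± 0.27). *Vegfc*, its ligand, had 29.1 and 45.2 CPM against 24.7 and 22.4 CPM. Of 3 angiopoietin-TIE genes 1, the receptor *Tek*, lay below (136 and 155 CPM against 118 and 106 CPM), with a list median of -0.23.

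Notch genes had 1 of 9 above and 1 below, with a median of -0.21. The Notch target *Hes1* had 96.4 and 39.3 CPM in controls against 150 and 101 CPM in ablated samples (0.88 ± 0.37), but -0.010 after thinning. The ligand *Dll4* overlapped, at 49.1 and 70.8 against 98.7 and 59.7 CPM. Of 12 ALK1-endoglin and TGF-beta genes, 3 lay above and 3 below, with a median of 0.096. The receptor *Acvrl1*, which encodes ALK1, had 151 and 157 CPM against 120 and 127 CPM (-0.32 ± 0.20), while its co-receptor *Eng* overlapped (-0.08 ± 0.20). The 25 transcription factors had 3 above and 3 below and a median of 0.048. *Mef2c*, a MADS-box factor of vessel growth, had 229 and 244 CPM against 357 and 325 CPM (0.53 ± 0.18, unadjusted p = 0.0171), the ETS factor *Erg* 61.8 and 59.0 CPM against 74.1 and 74.7 CPM (0.30 ± 0.24), and *Klf2*, induced by flow, overlapped.

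Junction and adhesion genes had 4 of 18 above and 4 below, with a median of -0.11, and *Cdh5*, which the rule also used, had a log2 fold change of -0.03 ± 0.15. Vasoactive and anticoagulant genes had 1 of 15 above and 3 below (median -0.20). *Nos3*, the endothelial nitric oxide synthase, had 72.8 and 51.1 CPM in controls and 79.0 and 76.5 CPM in ablated samples (0.32 ± 0.26), and *Ptgis*, which makes prostacyclin, 30.9 and 21.6 CPM against 6.58 and 16.8 CPM (-1.19 ± 0.52), and passed the filter on low counts through the controls alone. Lipid genes had 0 of 8 above and 3 below (median -0.33): *Rbp7*, *Plin2* and *Mgll*. *Fabp4* had 144 and 527 CPM in controls and 21.4 and 392 CPM in ablated samples, and the 3 cells with most *Fabp4* held 59.0 to 84.8% of its UMIs in a sample. Below 7500 UMIs its unscaled levels were 190 and 526 against 22.5 and 31.8 CPM. It was called as lower there (log2 fold change -3.78, adjusted p = 0.00435). In those cells it reached the filter on low counts only through the controls, where it is high, with 9 and 12 UMIs in ablated samples. Among all members the log2 fold change was 0.48 without control replicate 2 and 0.23 without ablated replicate 1. It did not change sign without control replicate 1 or without ablated replicate 2. Basement membrane genes had 1 of 12 above and 6 below (median -0.089), with *Nid2*, nidogen-2, at 231 and 218 against 166 and 134 CPM (-0.58 ± 0.20, and 0.19 after thinning) and *Col4a1* at 0.065 ± 0.15.

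By vessel type, arterial genes had 0 of 10 above and 2 below (median -0.059), venous genes 0 of 5 above and 1 below (0.072), capillary genes 1 of 7 above and 2 below (-0.14) and tip cell genes 0 of 9 above and 4 below (-0.19). *Rgcc*, a capillary gene, had 377 and 324 CPM in controls and 543 and 532 CPM in ablated samples (0.62 ± 0.18, unadjusted p = 0.00635), and *Cxcr4*, a chemokine receptor of tip and arterial cells, 43.7 and 47.2 CPM against 24.7 and 18.7 CPM (-1.05 ± 0.33). The lymphatic list had the lowest median, -0.61, with 0 of 5 above and 3 below. That median is the value of *Flt4*, which was -0.34 without cells holding 3 lymphatic markers. *Prox1*, the master regulator of lymphatic fate, had 40.0 and 27.5 CPM against 21.4 and 14.9 CPM (-0.88 ± 0.39, from a gene that reached the filter on low counts only through the controls), and *Mmrn1*, a lymphatic matrix protein, 45.5 and 53.1 CPM against 28.0 and 22.4 CPM (-0.95 ± 0.31). *Lyve1* was seen in 2 cells of control replicate 1 and 2 of ablated replicate 1, and in none of the other samples, for a log2 fold change of 0.83 ± 1.16. Without the upper UMI limit the log2 fold changes were -1.47 for *Prox1*, -1.74 for *Mmrn1* and -2.04 for *Lyve1*, and none passed (adjusted p = 0.886, 0.466 and 0.886). At least 3 lymphatic markers were held by 3, 1, 2 and 0 members. The unscaled sum of the lymphatic list overlapped, at 443 and 241 CPM in controls and 396 and 103 CPM in ablated samples. So did *Ccl21a*, at 206 and 80.9 against 216 and 0 CPM unscaled. A *Prox1* UMI was seen in 4.03%, 4.76%, 3.23% and 6.93% of the members, and 3 cells held 50.0 to 92.3% of its UMIs in a sample. Whether the number of lymphatic cells or their RNA per cell differed was not tested.

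Cell cycle genes had 0 of 19 above and 6 below (median -0.14), and *Pcna*, the DNA replication clamp, had 209 and 153 CPM in controls and 67.5 and 114 CPM in ablated samples (-1.01 ± 0.28, unadjusted p = 0.00494). Cells with at least 3 cycle genes made up 66.1%, 56.3%, 49.2% and 66.3% of the members, and 24.2%, 24.6%, 21.8% and 19.8% after thinning to 1000 UMIs. Dissociation stress genes had 6 of 16 above and 0 below, with a median of 0.45. *Nr4a1* had 41.8 and 80.6 CPM against 128 and 114 CPM (1.00 ± 0.30) and *Btg2* 166 and 378 CPM against 611 and 461 CPM (0.99 ± 0.33). Control replicate 1 was lowest in both. Without the upper UMI limit the median of that list was 0.031. Several list members named above were also closer to 0 there, at 0.13 for *Hes1*, -0.25 for *Cxcr4*, -0.32 for *Pcna*, 0.27 for *Nr4a1* and 0.20 for *Btg2*. *Nr3c1*, the glucocorticoid receptor, lay above the controls, at 56.4 and 64.9 against 87.2 and 84.0 CPM (0.50 ± 0.24).

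**Figure D4:**
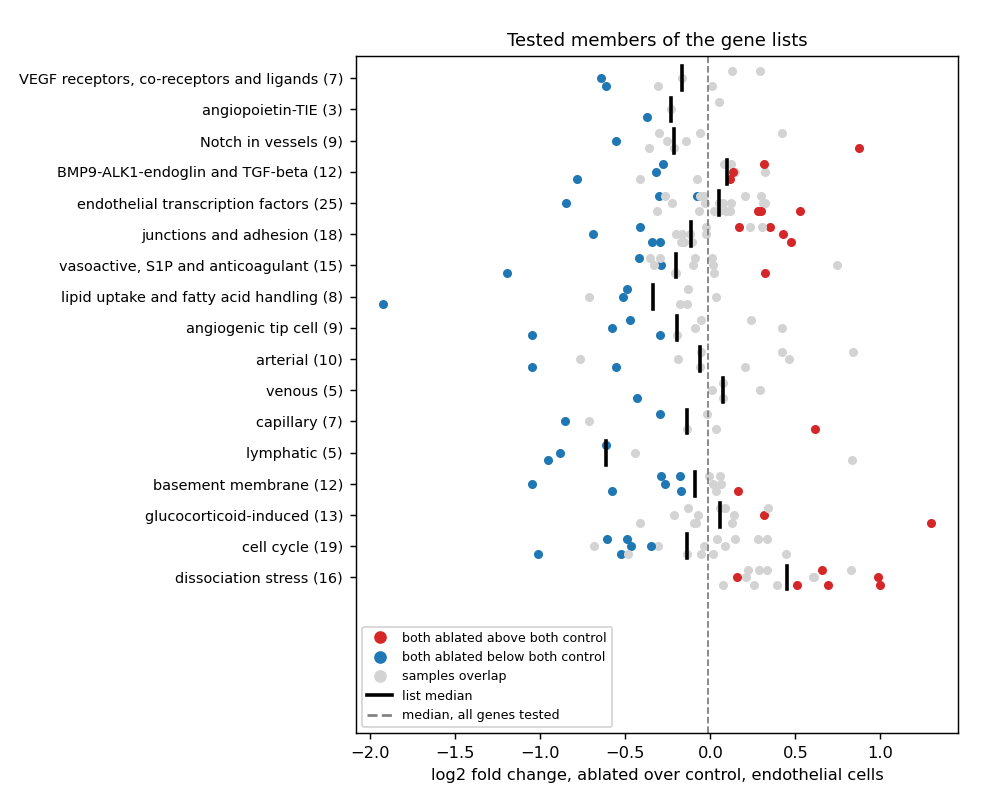
Log2 fold change of each tested member of the lists shown (number in brackets) in endothelial cells, ablated over control. Red points had both ablated samples above both controls, blue points both below, and grey points overlapped, with black bars for list medians and a dashed line for the median of all genes (-0.015). The lymphatic median lies at -0.61 and the dissociation stress median at 0.45, and no member passed the test.

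The last comparison asked whether the genotype effect in endothelium differed from that in all other cells of the same samples. The interaction was called for 3 of 6860 genes (0.0437%), 2 with a higher effect in endothelium (0.0292%) and 1 with a lower one (0.0146%). *Sult1a1*, a phenol sulfotransferase, had 98.2 and 61.0 CPM in control and 98.7 and 76.5 CPM in ablated endothelial cells, which overlap (0.14 ± 0.28). In all other cells it went from 9.69 and 9.88 CPM to 1.20 and 0.838 CPM, a fall of 3.26 ± 0.23 on the log2 scale (adjusted p = 0.008155). The difference of the log2 fold changes was 3.38 ± 0.35 (adjusted p = 0.00218), and 3.08 to 3.76 when 1 sample was left out. In such fits the lone sample of a genotype is assumed to vary like the other genotype's samples. Endothelial cells thus held more *Sult1a1* per UMI than the other cells in every sample.

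*Stmn2*, a microtubule regulator best known from neurons and a leading gene of the arterial-like cells, went the other way. It had 129 and 191 CPM in control and 80.6 and 74.7 CPM in ablated endothelial cells (-1.03 ± 0.25), and 9.33 and 17.3 CPM against 35.2 and 30.4 CPM in the other cells (1.30 ± 0.28, adjusted p = 0.118). A UMI of it was seen in 12.9%, 20.6%, 15.3% and 15.8% of the members, and 3 cells held 38.8 to 47.5% of its endothelial UMIs in each sample. Neither change passed alone, while their difference of -2.40 ± 0.22 did (adjusted p = 0.00096). *Map1b*, a microtubule-associated protein, differed by 1.16 ± 0.17 (adjusted p = 0.0376): it overlapped in endothelial cells (0.18 ± 0.21) and went from 385 and 510 CPM to 245 and 199 CPM in the others (-1.01 ± 0.17, adjusted p = 0.0766). In cells with macrophage markers *Map1b* had a log2 fold change of -0.11 ± 0.29. The unscaled levels of *Sult1a1* overlapped there, at 8.86 and 14.4 CPM in controls and 8.87 and 6.96 CPM in ablated samples. These rest on 5, 9, 5 and 4 UMIs, near a floor of 3 counts, so they say little about a change. In cells with pericyte markers the log2 fold changes were -0.89 ± 0.16 for *Map1b* and -1.48 ± 0.41 for *Sult1a1* (adjusted p = 0.195 and 0.429). The samples of *Stmn2* overlapped in the cells with pericyte markers (0.46 ± 0.62). In cells with macrophage markers *Stmn2* had 0 UMIs in both controls and 12 and 2 UMIs in ablated samples. The endothelial samples of *Stmn2* overlapped without the upper UMI limit, at 52.4 and 114 against 47.2 and 55.6 CPM unscaled (-0.74 ± 0.32). The call for *Map1b* was lost without either ablated sample (adjusted p = 0.0776 without replicate 1 and 0.226 without replicate 2). The genes next in order did not pass. They were *Cebpd*, *Btg2* and *Fkbp5* with a higher effect in endothelium, and *Txnip*, *Igfbp3*, *Ldb2* and *Isg15* with a lower one (adjusted p from 0.109 for *Txnip* to 0.200 for *Ldb2* and *Isg15*).

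**Figure D5:**
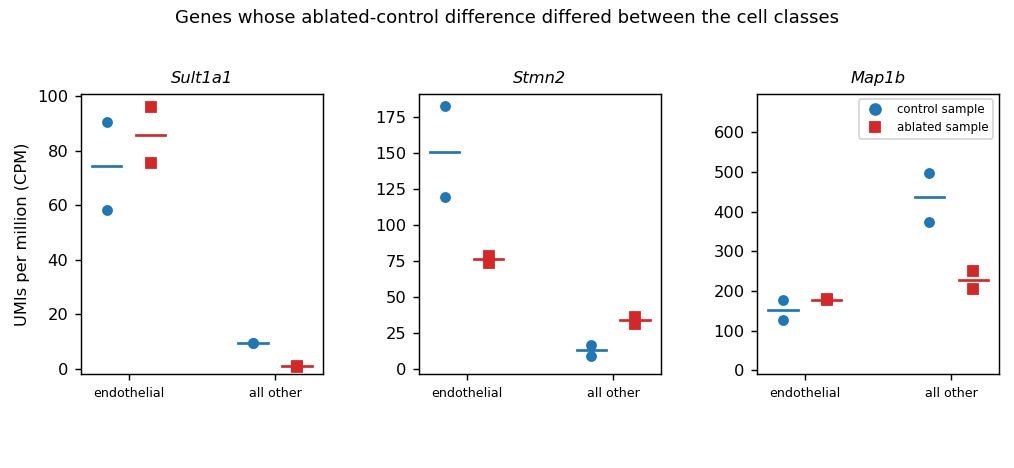
Unscaled CPM of the 3 genes called for the interaction, in endothelial and all other cells. Circles are control samples, squares ablated samples and short lines group means, n = 2. *Sult1a1* overlaps between genotypes in endothelial cells and lies below 1.3 CPM in the other cells of both ablated samples.

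Glucocorticoid hormones come from the adrenal cortex and act through the receptor encoded by *Nr3c1*. Of 20 genes known to be induced by them, 13 were tested in endothelial cells, with 2 above, 0 below and a median of 0.057. In the other cells 20 were tested, 0 rose and 2 fell, *Fkbp5* and *Sult1a1*, where 0.202% of all genes tested fell and as many rose. *Fkbp5*, a co-chaperone of steroid receptors, had 25.5 and 45.2 CPM in control and 21.4 and 31.7 CPM in ablated endothelial cells (-0.41 ± 0.40). Without the upper UMI limit its samples did not overlap, at 34.8 and 40.5 against 21.3 and 31.4 CPM unscaled (-0.59 ± 0.24, unadjusted p = 0.0355, adjusted p = 0.886). *Fkbp5* went from 76.7 and 79.1 CPM to 12.8 and 13.0 CPM in all other cells (-2.59 ± 0.12, adjusted p = 0.00179). In cells with pericyte markers it fell by 2.95 ± 0.24 (adjusted p = 0.00660), and in cells with macrophage markers, which are close in number to the endothelial cells, the log2 fold change was -2.16 ± 0.38 (adjusted p = 0.230). The make-up of that last class differed between samples: its unscaled *Cma1* level was 1315, 6872, 977 and 1.74 CPM. The difference between endothelium and all other cells was 2.15 ± 0.40 and did not pass (adjusted p = 0.166). Without control replicate 2, which leaves 1 control, it was 2.61 (adjusted p = 0.0224), and the endothelial log2 fold change was 0.039. *Cebpb*, which passed the filter on low counts through the ablated samples alone, had 12.7 and 11.8 against 37.9 and 22.4 CPM (1.30 ± 0.45), and a log2 fold change of -0.029 without the upper UMI limit and cells of other markers.

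The upstream bases of *Sult1a1* and *Fkbp5* are shown because these were the called members of that list in the other cells. The letters AGAACA, 1 arm of the glucocorticoid response element, were searched on both strands and occurred in 16.1% of the 32851 windows of 250 bases. Capitals mark them or its reverse complement. *Sult1a1* (chr7:126676433-126676668, minus strand) holds them 212 and 34 bases before the RefSeq start. *Fkbp5* (chr17:28486150-28486399, minus strand), whose RefSeq start here lies inside the longer GENCODE gene, does not hold them.
Sult1a1: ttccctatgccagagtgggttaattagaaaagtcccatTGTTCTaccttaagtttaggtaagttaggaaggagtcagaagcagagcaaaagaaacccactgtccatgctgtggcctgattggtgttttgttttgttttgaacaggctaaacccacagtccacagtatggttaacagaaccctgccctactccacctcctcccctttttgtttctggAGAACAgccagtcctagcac
Fkbp5: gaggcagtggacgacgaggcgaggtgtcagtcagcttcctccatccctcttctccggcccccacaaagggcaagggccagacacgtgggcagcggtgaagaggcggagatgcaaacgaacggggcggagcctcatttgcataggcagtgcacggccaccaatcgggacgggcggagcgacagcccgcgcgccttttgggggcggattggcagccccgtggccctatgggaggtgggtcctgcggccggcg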

How the data were processed

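The authors dissociated E16.5 penises with dispase, collagenase and DNase, sequenced the pooled 10x libraries on 1 flow cell and aligned reads to mm10 with reporter sequences added. The submitters' processing notes name Cell Ranger 4.0.0. The deposited values are raw UMI counts per gene and cell barcode, without normalization. Libraries held 73577028 and 53654435 UMIs in controls and 50794318 and 50779551 UMIs in ablated samples.

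Endothelial counts were added up within each sample. After filterByExpr and TMM scaling, genotype was the only term of a quasi-likelihood fit (edgeR 4.0.16, R 4.3.3). The interaction used 8 sums, with the sample as a term. DESeq2 1.42.0 was an alternative. Replicates differed by more than sampling noise (chi-square per degree of freedom 2.98 in controls and 2.07 in ablated samples). Sub-clusters came from Leiden clustering (leidenalg 0.10.2) of 1000 variable genes. Doublets were not removed. Named genes were the 20 with the highest identity ratio, the 10 each way with the smallest genotype p, and 5 each way for the interaction, at a mean of 20 CPM or more. Other examples come from the lists. The members and the lists were chosen with earlier results of these data known. Tests were checked on simulated data. Gene positions are from GENCODE vM21 (GRCm38). Some genes that these rules name, and 1 list that holds such a gene, are not reported here.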

Additional observations from a re-analysis of the deposited data

Results flagged for a closer look

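The difference between the genotype effect in endothelial cells and that in all other cells passed its own test for 3 genes. It was 3.38 on the log2 scale for *Sult1a1*, whose level overlapped between genotypes in endothelium and fell in the other cells. It was -2.40 for *Stmn2*, with lower values in ablated endothelium and higher values in the other ablated cells. In each sample 3 cells held 38.8 to 47.5% of the endothelial *Stmn2* UMIs. The difference between the genotype effects was 1.16 for *Map1b*.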

How the results depend on the processing

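No gene was called in the endothelial cells with edgeR's quasi-likelihood test. The number was also 0 with RLE size factors and after thinning to 1000 UMIs. It was 1 with DESeq2, with at least 4 of the markers, without cells holding 3 markers of another class and without cells holding 3 lymphatic markers, 2 below 7500 UMIs, 3 with the likelihood ratio test, 10 with at least 2 markers and 27 with no filter on low counts. Replicate numbers were not taken to pair the samples, since labels give no shared litter or day. The deviations of replicate 1 correlated at -0.117 over 6860 genes, which with 2 samples a genotype cannot show whether a pairing exists. With the replicate number as a block, 1 gene was called, *tdTomato*. Pairing the numbers crosswise also gave only *tdTomato*. Among alternatives chosen after seeing the data, the count was 8 with no upper UMI limit, 3 when cells with other markers were left out as well, 2 without cells holding 3 erythroid markers and 1 without those holding 3 mesenchyme markers. Leaving out 1 sample gave 5 (without ablated replicate 1) to 83 (without control replicate 2), with 35 without control replicate 1 and 14 without ablated replicate 2, so that the count depended on single libraries. These fits leave 1 sample in a genotype, which is assumed to vary like the other genotype's samples. The interaction count of 3 became 46 with no filter, and 4 (without ablated replicate 2) to 22 (without control replicate 2) without 1 sample. The share of endothelial cells among passing cells stayed lower in ablated samples without 1 sample, by 0.0696 percentage points without ablated replicate 2 to 0.485 without ablated replicate 1. Of 665 values for 35 genes under the alternatives, 9 changed sign: *Lum* to -0.11 with no upper limit and -0.25 when cells with other markers were also left out, *Tshz1* to -0.077 and *Cebpb* to -0.029 in the latter, *Fabp4* to 0.48 without control replicate 2 and 0.23 without ablated replicate 1, *Fkbp5* to 0.039 without control replicate 2, and *Nid2* to 0.19 and *Hes1* to -0.010 after thinning. Without 1 sample, *Fabp4* ranged from -3.94 to 0.48 and *Fkbp5* from -0.78 to 0.039. Outside these 35 genes, the endothelial log2 fold change also changed sign without the upper limit for *Lyve1* (-2.04), *Sult1a1* (-0.10) and *Map1b* (-0.02). The causes were not tested. With 101 to 126 cells a sample, depth limits what single genes can show: a count of 30 UMIs is near 50 CPM.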
